A study of Homo sapiens with 12 samples.

Results

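The genes described here are 8 that drive or restrain the anaphase-promoting complex (APC/C) and the step it triggers: the activators CDC20 and FZR1, the inhibitor FBXO5, the ubiquitin-conjugating enzymes UBE2C and UBE2S, the securin PTTG1, the separase ESPL1 and the kinase-binding protein CKS2. They were taken as a list of names, and every probe set annotated to one of them alone was taken, which gave 13 of the 54675 probe sets of the array. At least 1 probe set of each gene passed the filter on low values (a log2 signal of at least 5 on at least 2 arrays), so all 8 stand among the 9130 genes tested. A single probe set of FZR1, at 3.44 to 3.83 on all 12 arrays, did not pass.

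Cells of HCT116, a human colorectal carcinoma line, were stopped before S phase by 2 blocks with thymidine and were then washed into medium with nocodazole or with DMSO. Nocodazole, which depolymerizes microtubules and keeps cells in mitosis, was followed hourly from 7 h to 10 h after release, and DMSO, its vehicle, every 2 h from 0 h to 6 h and then hourly to 10 h. All groups, the DMSO cultures included, had passed through the thymidine blocks. Total RNA of each culture and hour went onto a single Affymetrix U133 Plus 2.0 array, 12 in all, with no replicate. Neighbouring hours therefore stood in for replicates, and no p-value below measures a spread between cultures of the same hour. The spread is that of hours within a window, of hours around a smooth curve, or of the nocodazole minus DMSO difference between hours.

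The APC/C is a ubiquitin ligase that marks cyclin B and securin for destruction and so starts anaphase and the exit from mitosis. CDC20 activates it in mitosis, when the spindle checkpoint allows, and FZR1, also called CDH1, activates it from late mitosis into G1. FBXO5, also called EMI1, keeps it inactive during S and G2 phase, UBE2C starts the ubiquitin chains, UBE2S lengthens them, and securin holds separase inactive until it is destroyed, after which separase cuts the cohesin that ties sister chromatids. CKS2 binds cyclin-dependent kinases and helps bring their substrates to them and to the APC/C. These proteins are regulated to a large extent by destruction and phosphorylation, while the arrays measured their mRNA.

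Many genes of G2 and mitosis carry a cell cycle homology region (CHR, searched as TTTGAA) and CCAAT boxes (searched as CCAAT) shortly before their start, and these letters were searched on both strands in RefSeq promoter windows of GRCh38.p14 that reach from 250 bases before to 50 bases after a start. Windows were given for 7 of the 8 genes, 10 in all, and UBE2C was not among them. The CHR letters stood in a window of 5 genes (CDC20, FZR1, FBXO5, ESPL1 and CKS2), against 15.2% of all 35116 windows, and the CCAAT letters in one of 6 genes (all of the 7 except FZR1), against 34.6% of all windows. The E2F core letters TTGGCGC or TTCGCGC, whose first form can share bases with the ATTGG of a reversed CCAAT box, were found in 0 of the 7 genes and in 5.06% of all windows. A gene with several windows has more room for a match, and a match is only a run of letters. The 100 bases before the start are shown for the 4 genes whose window holds both the CHR and the CCAAT letters, read 5′ to 3′ along the gene, with every match on either strand in capitals (TTCAAA and ATTGG are the same letters on the other strand).
CDC20: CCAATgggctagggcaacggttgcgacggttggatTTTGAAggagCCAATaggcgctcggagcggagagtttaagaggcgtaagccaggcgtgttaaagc
FBXO5: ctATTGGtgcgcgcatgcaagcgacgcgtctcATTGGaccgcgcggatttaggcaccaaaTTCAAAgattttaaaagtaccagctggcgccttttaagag
ESPL1: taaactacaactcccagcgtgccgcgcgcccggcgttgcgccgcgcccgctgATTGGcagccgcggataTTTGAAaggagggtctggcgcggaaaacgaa
CKS2: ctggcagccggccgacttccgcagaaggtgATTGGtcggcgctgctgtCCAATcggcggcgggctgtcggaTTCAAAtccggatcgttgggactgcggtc
These stretches lie at chr1:43358881-43358980 on the plus strand, chr6:152983042-152983141 on the minus strand, chr12:53268199-53268298 on the plus strand and chr9:89311095-89311194 on the plus strand, in the order shown. That of FBXO5 belongs to the second of its RefSeq starts and lies inside the gene as its first start bounds it, and the window of that first start held neither motif. In ESPL1, CKS2 and FBXO5 the CHR letters begin 31, 29 and 40 bases before the start and the nearest CCAAT letters 48, 52 and 68 bases before it. In CDC20 the CHR letters begin 65 and 178 bases before the start, so the second match lies outside the stretch shown. The single CHR match of FZR1 begins 226 bases before its start, also beyond the stretch of this length.

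Signals are log2 values made with GC-RMA, so a difference of 1 is a change of 2-fold, and levels are compared only within a gene. Over the DMSO course the 8 genes moved by 0.82 (UBE2S) to 2.16 (CDC20) between their lowest and highest hour, against a median of 0.767 over all genes. A smooth curve of time (a spline fitted by limma, adjusted over all 9130 genes) passed the test for 7 of the 8, with FZR1 not passing at an adjusted p of 0.187, where 21.8% of all genes passed.

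**Figure D1:**
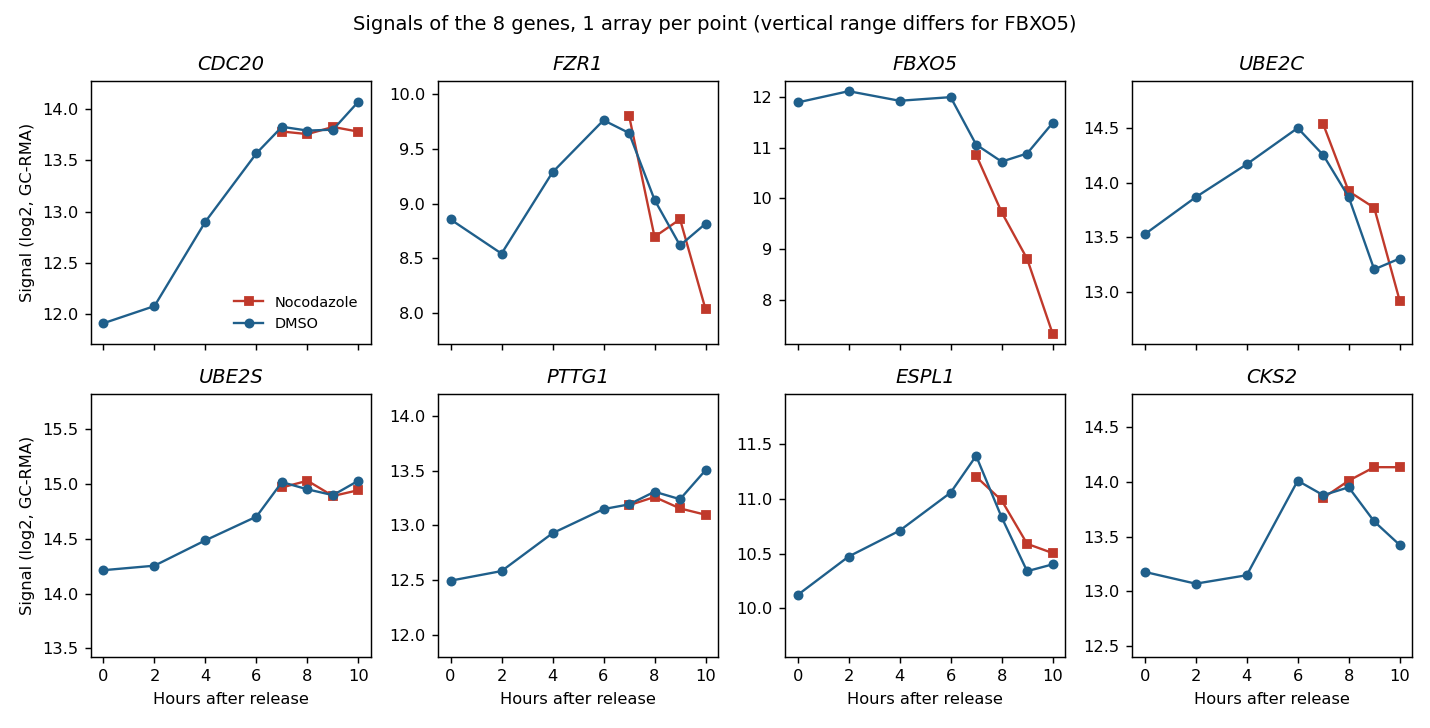
Log2 signal (vertical axis) against hours after release for the 8 genes, with 4 nocodazole arrays (red squares) and 8 DMSO arrays (blue circles), 1 array per point and no error bar. FBXO5 reached 7.33 with nocodazole at 10 h, against 11.48 with DMSO, while CKS2 stayed at 14.13 with nocodazole and stood at 13.42 with DMSO.

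CDC20, the mitotic activator, had the widest DMSO range of the 8 genes. With nocodazole its probe set read 13.78, 13.76, 13.83 and 13.78 at 7, 8, 9 and 10 h, and with DMSO it read 11.91, 12.08, 12.90 and 13.57 at 0, 2, 4 and 6 h and 13.83, 13.79, 13.80 and 14.07 at 7 to 10 h. The DMSO signal was lowest at 0 and 2 h, climbed until 7 h and did not come down by 10 h, and the 4 nocodazole values lay within its values of 7 to 10 h or less than 0.05 below them. Its highest DMSO hour was 10 h, but 7, 8 and 9 h lay within 1 SD of it (0.36, the spread within DMSO windows of 0 to 4, 6 to 8 and 9 to 10 h, which also holds any trend inside a window), and with each array centred on its median the highest hour was 8 h.

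FZR1, the activator of late mitosis and G1, had an earlier and shorter peak. The signal was 9.80, 8.70, 8.86 and 8.04 at 7 to 10 h with nocodazole, and 8.86, 8.54, 9.29, 9.76, 9.65, 9.03, 8.62 and 8.82 over the DMSO hours of 0 to 10 h. It was high at 6 and 7 h with DMSO and at 7 h with nocodazole, and by 9 h it was back in the range of 0 and 2 h with DMSO. Its 6 h and 7 h values differed by 0.12, less than the SD of 0.35, and the other 2 probe sets that passed the filter were highest at 7 h.

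FBXO5, the inhibitor, was higher at 0 to 6 h than at 7 to 10 h with DMSO in its probe set of highest mean. It read 10.85, 9.73, 8.81 and 7.33 at 7, 8, 9 and 10 h with nocodazole, against 11.06, 10.72, 10.88 and 11.48 at the same hours with DMSO, where it had read 11.89, 12.11, 11.92 and 11.99 at 0, 2, 4 and 6 h. With DMSO the signal was high in S phase, dipped at 7 to 9 h and was partly back at 10 h, while with nocodazole each hour was lower than the one before. Its highest DMSO hour was 2 h, and 0, 4 and 6 h lay within 1 SD (0.46) of it.

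UBE2C, the enzyme that starts the chains, read 14.53, 13.92, 13.77 and 12.92 with nocodazole and 13.53, 13.87, 14.17, 14.50, 14.25, 13.87, 13.21 and 13.31 over the DMSO hours. The signal was highest at 6 h with DMSO and at 7 h with nocodazole, and both courses then came down, the nocodazole one standing higher at 7, 8 and 9 h and lower at 10 h. UBE2S, the enzyme that lengthens them, read 14.97, 15.03, 14.89 and 14.94 with nocodazole and 14.21, 14.25, 14.49, 14.70, 15.02, 14.95, 14.90 and 15.03 with DMSO. It climbed until 7 h and then stayed within 0.15 (1 SD) of its highest value in either culture.

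PTTG1, securin, read 13.19, 13.26, 13.16 and 13.10 with nocodazole and 12.50, 12.58, 12.93, 13.15, 13.19, 13.31, 13.24 and 13.50 with DMSO. Like CDC20 and UBE2S it was lowest at 0 h and highest at 10 h with DMSO as deposited, and at 8 h after centring of the arrays. Its only probe set is of the type named x_at, whose probes can match other transcripts, and its paralog PTTG2 did not pass the filter. ESPL1, the separase that securin holds, read 11.20, 10.99, 10.59 and 10.51 with nocodazole and 10.12, 10.47, 10.71, 11.06, 11.39, 10.83, 10.34 and 10.40 with DMSO. It had a peak at 7 h, 0.34 above its next highest hour, where the SD was 0.26, and at 9 and 10 h with DMSO it lay within its values of 0 and 2 h.

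CKS2 read 13.85, 14.01, 14.13 and 14.13 at 7, 8, 9 and 10 h with nocodazole and 13.18, 13.07, 13.15, 14.01, 13.88, 13.95, 13.64 and 13.42 over the DMSO hours. It was flat to 4 h, stepped up between 4 and 6 h, and was coming down at 9 and 10 h with DMSO, while the nocodazole values at 9 and 10 h were the highest of its 12. The hours within a window were close together, with an SD of 0.0871 that was below the median of 0.21 over all genes. Its paralog CKS1B passed the filter and was not called in any of the comparisons as deposited. After centring of the arrays CKS1B passed as higher at 9 and 10 h with nocodazole than with DMSO (0.43, limma adjusted p = 0.019), where 28.1% of all genes did. After quantile normalization CKS1B did not pass there (0.01).

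FZR1, FBXO5 and ESPL1 had several probe sets each, and their courses could be set side by side. The second probe set of FBXO5 is, like that of PTTG1, of the type named x_at. With DMSO it read 9.77, 10.08, 10.10 and 10.21 at 0, 2, 4 and 6 h, so it peaked at 6 h. By 10 h it was 0.08 below that peak, where the first probe set was 0.63 below its own. It read 9.53, 8.33, 6.87 and 3.88 at 7 to 10 h with nocodazole, against 9.51, 9.09, 9.57 and 10.14 at these hours with DMSO. It was lower by 4.48 at 9 and 10 h with nocodazole than with DMSO, where the first was lower by 3.11, and its last value lay below the floor of 5. In ESPL1 both probe sets peaked at 7 h with DMSO, at 11.39 and 10.74, and were lower at 9 to 10 h than at 6 to 8 h by 0.72 each. The 3 kept probe sets of FZR1 all stood lower at 9 to 10 h than at 6 to 8 h with DMSO, with differences of -0.76, -0.53 and -1.22, but at 9 and 10 h with nocodazole against DMSO they had differences of -0.27, -0.01 and 0.36.

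**Figure D2:**
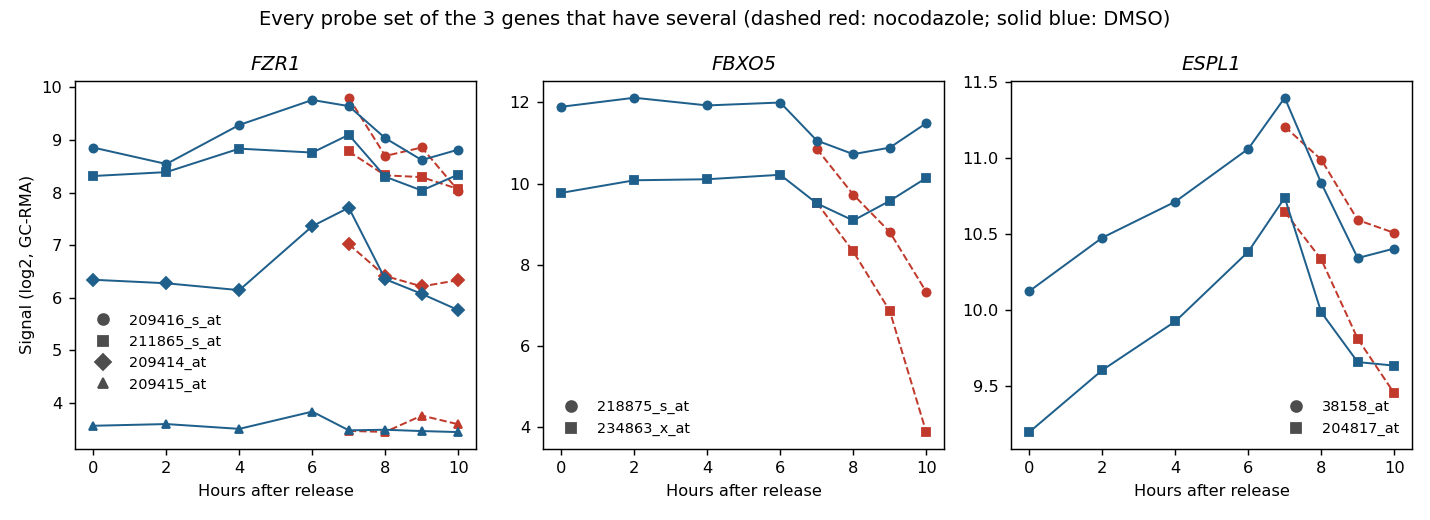
Log2 signal against hours after release for every probe set of FZR1, FBXO5 and ESPL1, with nocodazole as dashed red lines and DMSO as solid blue lines, 1 array per point and a marker shape per probe set. Both FBXO5 probe sets part from DMSO after 7 h, and the lowest FZR1 probe set, at 3.44 to 3.83, is the one that was not kept.

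The change into G2 and mitosis was read as DMSO at 6 to 8 h minus DMSO at 0 to 4 h, each a mean of 3 arrays. CDC20, CKS2, UBE2S and PTTG1 rose, 4 of the 8, and 0 fell, where 5.41% of all genes passed as higher and 0.635% as lower. CDC20 averaged 13.73 at 6 to 8 h and 12.30 at 0 to 4 h, a difference of 1.43 (SE 0.23, limma adjusted p = 0.022), or 2.69-fold. The difference was 0.82 for CKS2 (SE 0.09, adjusted p = 0.0184), 0.57 for UBE2S (SE 0.11, adjusted p = 0.0278) and 0.55 for PTTG1 (SE 0.13, adjusted p = 0.0454), and in these 4 genes every hour of the later window lay above every hour of the earlier one. ESPL1 did not overlap between the windows either, with a difference of 0.66 that did not pass (adjusted p = 0.075), so 5 of the 8 lay higher without overlap and 0 lower, where 20.8% of all genes did so as higher and 9.98% as lower. The windows of FZR1 (difference 0.59), UBE2C (0.35) and FBXO5 (-0.72) overlapped, with adjusted p of 0.183, 0.285 and 0.185. The median difference was 0.58 over the 8 genes and 0.06 over all genes. Without the DMSO array of 2, 7 or 8 h, 0 of the 8 and 0 of all genes passed, with the differences of the 4 genes then at 0.50 to 1.399. After centring of the arrays 4.24% of all genes passed as higher and 10.1% as lower (after quantile normalization 5.08% and 4.6%), and UBE2S and PTTG1 (0.30 and 0.27) no longer passed while FBXO5 (-0.99, adjusted p = 0.0497, over a range of 0.0129 to 0.471 in its alternatives) did.

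The change at the exit from mitosis was read as DMSO at 9 to 10 h minus DMSO at 6 to 8 h. No gene of the array passed in limma after adjustment, 0 of 9130, and 470 had an unadjusted p under 0.05, 3.12% of all genes as higher and 2.03% as lower. Of the 8 genes, 4 had an unadjusted p under 0.05, all as lower. UBE2C averaged 13.26 at 9 to 10 h and 14.21 at 6 to 8 h, a difference of -0.95 (SE 0.21). The differences of FZR1, ESPL1 and CKS2 were -0.76, -0.72 and -0.42, and in these 4 genes both late hours lay below all 3 earlier ones, with adjusted p of 0.783 to 0.912. That order was found in 7.37% of all genes, and the opposite one, with both late hours above, in 9.75% and in 0 of the 8. CDC20 (0.21), PTTG1 (0.16), UBE2S (0.07) and FBXO5 (-0.07) overlapped between the windows. The last hour was 10 h, so the courses of CDC20, UBE2S and PTTG1 beyond their highest DMSO signals were not measured.

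**Figure D3:**
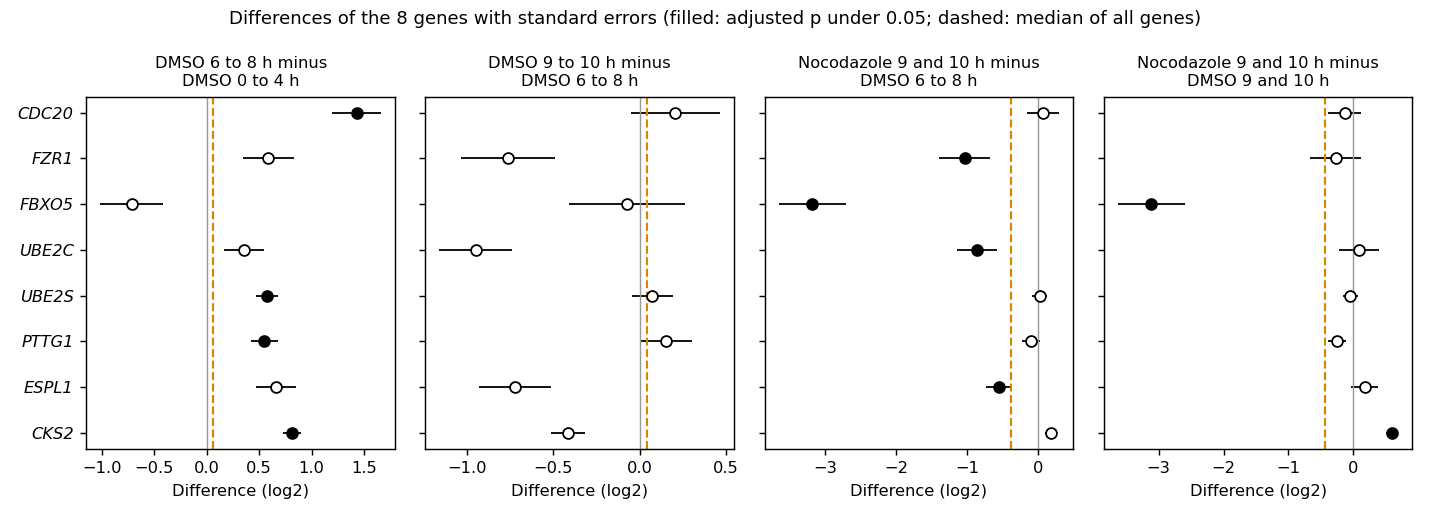
Differences of the 8 genes on the log2 scale with their standard errors, in 4 comparisons, where a filled point has an adjusted p under 0.05, the grey line marks 0 and the dashed line the median of all genes. FBXO5 stands apart at the left of both nocodazole panels, at -3.19 and -3.11, and the dashed line lies at -0.375 and -0.44 there.

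The arrays of nocodazole at 9 and 10 h had the lowest medians of the series, 8.39 and 8.28 over the kept probe sets, against 8.90 and 8.99 at 7 and 8 h with nocodazole and 8.59 to 9.13 with DMSO. The median difference over all genes, nocodazole minus DMSO, was -0.09, 0.08, -0.25 and -0.61 at 7, 8, 9 and 10 h. Whether this shift is a change in the cells or in the arrays was not tested, and calls were also made after the arrays were centred on their medians or quantile normalized. The epithelial markers EPCAM, CDH1 (here the cadherin gene of that symbol, not FZR1), KRT8, KRT18 and KRT19 (5 of 5) lay between 10.39 and 14.83 on all arrays. Of 5 markers of other cell types PTPRC, CD3E, PECAM1 and COL3A1 did not pass the filter, while COL1A1 read 7.75 to 8.60.

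Over all 4 shared hours, nocodazole minus DMSO passed the adjusted test in limma for 0 of 9130 genes, and 953 had an unadjusted p under 0.05, 1.25% of all genes as higher and 9.19% as lower. CKS2 (0.31) and FBXO5 (-1.86) were among these, both at an adjusted p of 0.386, beside a median of -0.22 over all genes. They stood at 0.64 and -1.53 after centring and at 0.18 and -1.09 without both arrays of 10 h. FBXO5 was lower with nocodazole at 4 of 4 hours, by differences of -0.20, -0.995, -2.08 and -4.15 at 7, 8, 9 and 10 h. CKS2 differed by -0.02, 0.06, 0.50 and 0.71 at these hours. After centring, FBXO5 differed by -0.03, -1.18, -1.60 and -3.30 and CKS2 by 0.15, -0.13, 0.97 and 1.56, so the gap of FBXO5 widened hour by hour on either scale and that of CKS2 stood out at 9 and 10 h.

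The growth of that gap was tested as an interaction, the difference at 9 and 10 h minus that at 7 and 8 h. That fit left 2 residual degrees of freedom per gene. It passed for FBXO5, at -2.51 (SE 0.51, adjusted p = 0.0139), and for CKS2, at 0.59 (SE 0.17, adjusted p = 0.0441), where 10.3% of all genes passed as lower and 1.99% as higher and the median of all genes was -0.44. The other 6 genes had interactions of -0.22 (PTTG1) to 0.19 (ESPL1), none of which passed. Without both arrays of 7 h or both of 8 h the value of CKS2 was 0.54 and 0.63 and no longer passed, FBXO5 ran from -1.48 without both arrays of 10 h to -3.55 without both of 9 h, and after quantile normalization it was at -1.91 with an adjusted p of 0.0528 (0.0528 was the highest over its alternatives). ESPL1 passed only after quantile normalization (0.70) or centring (0.86), and UBE2C and PTTG1 (-0.55 and -0.38) only without both arrays of 9 h.

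At 9 and 10 h FBXO5 was lower and CKS2 higher with nocodazole than with DMSO, in a fit over all 12 arrays. FBXO5 averaged 8.07 with nocodazole and 11.18 with DMSO, a difference of -3.11 (SE 0.52, adjusted p = 0.00163), or 8.65-fold lower. CKS2 averaged 14.13 with nocodazole and 13.53 with DMSO, a difference of 0.60 (SE 0.09, adjusted p = 0.00129), or 1.52-fold higher. Of all genes 41.6% passed as lower and 4.24% as higher as deposited, 6.93% and 28.1% after centring, and 10.6% and 12.4% after quantile normalization, and relative to the median of -0.44 the differences were -2.68 and 1.04. Both calls held in 19 of 19 alternatives, at -3.85 to -2.38 for FBXO5 and 0.50 to 1.27 for CKS2.

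The other 6 genes did not pass at these hours as deposited. CDC20 averaged 13.80 with nocodazole and 13.94 with DMSO, UBE2S 14.92 and 14.97, and PTTG1 13.13 and 13.37, differences of -0.13, -0.05 and -0.25. After centring of the arrays these were 0.53, 0.62 and 0.42 and UBE2S passed, while after quantile normalization they were -0.08, -0.01 and -0.14, so the direction for these 3 genes turns with the scaling. ESPL1 stood at 10.55 with nocodazole and 10.37 with DMSO (difference 0.18) and passed as higher after quantile normalization (0.67) and after centring (0.84). The second ESPL1 probe set differed by -0.01 as deposited. UBE2C differed by 0.09, by 0.20 after quantile normalization and by 0.75 after centring, and FZR1 by -0.27, 0.37 and 0.39 on these scales, none of which passed.

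Nocodazole at 9 and 10 h was also set against DMSO at 6 to 8 h, the hours read here as G2 and mitosis. How long cells had been held in mitosis by then was not measured. FBXO5 (-3.19, SE 0.47, adjusted p = 0.000927), FZR1 (-1.03, adjusted p = 0.0409), UBE2C (-0.86, adjusted p = 0.0296) and ESPL1 (-0.55, adjusted p = 0.0385) fell, 4 of the 8, and 0 rose. Among all genes 38.8% passed as lower and 3.69% as higher, with a median of -0.375, so FZR1, UBE2C and ESPL1 lay 0.66, 0.49 and 0.17 below that median. FBXO5 passed in 19 of 19 alternatives, UBE2C in 14, FZR1 in 11 and ESPL1 in 9. Without the nocodazole array of 10 h, or the DMSO array of 6 or 7 h, FBXO5 was the 1 gene of the 8 to pass, and without that nocodazole array the values of FZR1, UBE2C and ESPL1 were -0.62, -0.44 and -0.505. After centring FBXO5 (-2.63) was lower and UBE2S (0.59), PTTG1 (0.47) and CKS2 (0.75) passed as higher, while FZR1 (-0.47), UBE2C (-0.30) and ESPL1 (0.01) did not pass, where 7.43% of all genes passed as lower and 25.1% as higher. After quantile normalization FBXO5 and UBE2C (-0.77) passed and FZR1 (-0.52) and ESPL1 (-0.17) did not, where 10.7% passed as lower and 9.62% as higher.

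CDC20 (0.07), UBE2S (0.03), PTTG1 (-0.09) and CKS2 (0.19) did not pass in that comparison as deposited. Their nocodazole means at 9 and 10 h were 13.80, 14.92, 13.13 and 14.13, against 13.73, 14.89, 13.22 and 13.95 in DMSO at 6 to 8 h.

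Genes of the same pathway were counted in lists by function. Of 13 kept APC/C subunits, 0 passed in either direction at entry, with a median difference of 0.04. At 9 and 10 h with nocodazole against DMSO 7 were lower and 0 higher, where 41.6% and 4.24% of all genes were. The subunit median there was -0.40, beside -0.44 over all genes. After centring 3 subunits were higher there and 0 lower, where 28.1% and 6.93% of all genes were. At entry after centring 0 subunits were higher and 3 lower, where 4.24% and 10.1% of all genes were. Among 8 checkpoint proteins that hold or recruit CDC20, 3 rose at entry, where 5.41% of all genes did. They were MAD1L1 (1.35), the kinase BUB1 (1.08) and BUB1B (1.01), a part of the complex that blocks CDC20. After centring 3 were higher and 1 lower at entry, where 4.24% and 10.1% of all genes were. After quantile normalization 4 were higher and 1 lower, where 5.08% and 4.6% of all genes were. The lower gene on both scales was ZWINT (-0.79 and -0.46), which did not pass as deposited (-0.51). BUB1B read 12.73 and 12.73 at 9 and 10 h with nocodazole, against 12.67 and 12.58 with DMSO, and did not pass there. At 9 and 10 h with nocodazole, TTK was higher (0.53, and 1.19 after centring) and MAD1L1 lower (-0.82), both named here after their values were seen, and MAD1L1 did not pass after centring (-0.15). After centring 6 of the 8 passed as higher and 0 as lower at these hours, where 28.1% and 6.93% of all genes did. After quantile normalization 2 of the 8 passed as higher and 0 as lower, where 12.4% and 10.6% of all genes did.

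Of 19 kept APC/C substrates, 10 rose at entry and 0 fell as deposited, where 5.41% and 0.635% of all genes did. After centring 8 were higher and 6 lower at entry, where 4.24% and 10.1% of all genes were. The 4 largest differences as deposited were those of PLK1 (2.30) and AURKA (1.89), mitotic kinases, and of CCNB1 (1.26) and CCNB2 (1.26), the B cyclins. CCNB1 read 13.87 and 13.83 at 9 and 10 h with nocodazole, against 13.67 and 13.54 with DMSO, and AURKA read 12.43 and 12.28, against 11.96 and 11.79, and neither passed there. At those hours 2 substrates were higher with nocodazole, NEK2 (0.49) and CKAP2 (0.44), and 5 were lower, SKP2 (-1.52), CDC6 (-1.31), GMNN (-1.27), KIF22 (-0.64) and TK1 (-0.63), again named after their values were seen, so that 5 of 19 were lower where 41.6% of all genes were. After centring 11 passed as higher and 3 as lower, with NEK2 (1.16) and CKAP2 (1.101) higher, SKP2 (-0.85), CDC6 (-0.65) and GMNN (-0.61) lower, and KIF22 (0.02) and TK1 (0.04) not passing. Of all genes 28.1% passed as higher and 6.93% as lower on that scale. After quantile normalization 5 substrates passed as higher and 4 as lower, TK1 (-0.41) among the lower, where 12.4% and 10.6% of all genes did. None of the 6 cohesin genes and separase partners passed at entry as deposited (1 as lower after centring). SMC3 (-0.88), STAG2 (-0.72) and STAG1 (-0.70), also named after their values were seen, were lower at 9 and 10 h with nocodazole as deposited, where 41.6% of all genes were. These 3 did not pass after centring (-0.22, -0.06 and -0.03). On that scale RAD21 (0.87), SMC1A (0.73) and SGO2 (1.39) passed as higher and 0 of the 6 as lower, where 28.1% and 6.93% of all genes did. After quantile normalization 0 of the 6 passed. At entry the list medians were 0.64 for the substrates, 0.48 for the checkpoint proteins, -0.01 for the cohesin genes and 0.06 for all genes.

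**Figure D4:**
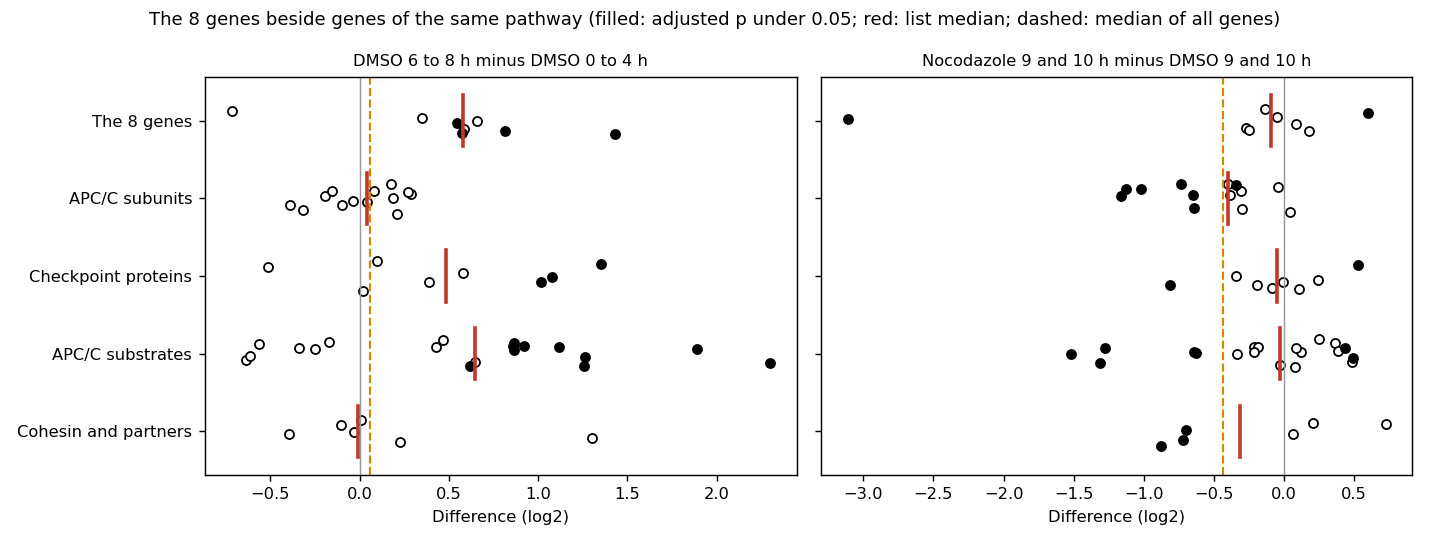
Log2 differences at entry (left) and of nocodazole minus DMSO at 9 and 10 h (right), 1 point per gene, filled where the adjusted p was under 0.05, with the list median in red and the median of all genes dashed. At entry the filled points lie among the 8 genes, the checkpoint proteins and the substrates, and FBXO5 at -3.11 is the lowest point on the right.

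The genes whose courses were most like each member over the 12 centred arrays were read by Pearson's r, as a description, since all points share the same arrays and neighbouring hours. CDC20 was most like SAPCD2 (0.986), POLR1B (0.983) and POLR1G (0.978). FZR1 was most like UBE2C (0.869), HSD17B1 (0.860) and UNK (0.832), and UBE2C like UNK (0.926), RCCD1 (0.925) and KATNAL1 (0.922). On this scale FZR1 was the 1 member whose nearest gene was another member. Over the member pairs r ran from -0.909 (FBXO5 with UBE2S) to 0.939 (UBE2S with PTTG1). The r of CDC20 was 0.894 with PTTG1 and 0.876 with UBE2S, and 0.964 and 0.973 on the 12 arrays as deposited. FBXO5 was most like PJA2 (0.986), NFKBIA (0.976) and TOPBP1 (0.974). UBE2S was most like CCND1 (0.979), DCUN1D5 (0.976) and GTPBP4 (0.975), and PTTG1 like ENAH (0.980), TSR1 (0.978) and PRR13 (0.977). ESPL1 was most like CDCA2 (0.964), HJURP (0.950) and KIF23 (0.948), 3 genes of mitosis, and CKS2 like NEK2 (0.939), a mitotic kinase, ANLN (0.936) and CD44 (0.931).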

How the data were processed

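The authors deposited log2 signals per probe set, made from 12 Affymetrix arrays with GC-RMA, per the labels and the study's methods, without a version. Base 2 was inferred from the size of the values. Columns of other samples numbered 0. Probe sets were named through the platform's annotation (41097 of 54675 with 1 symbol, 1801 with several, 11777 with none). A probe set with 1 symbol was kept where 2 or more arrays reached 5 (15030 probe sets), and each gene was read from its kept probe set of highest mean. The number of arrays limits the precision. Pearson's r between arrays was 0.938 to 0.995.

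Genes were fitted with limma 3.58.1 in R 4.3.3 (lmFit and eBayes with an intensity trend, Benjamini-Hochberg over 9130 genes, threshold 0.05): a spline of time with 3 degrees of freedom, window means of the DMSO arrays, nocodazole minus DMSO with time as a block and its interaction with early and late hours, and 5 window means over all arrays. The scripts were tested on simulated data. Other work used Python 3.11.15, numpy 2.4.6, pandas 2.3.3, scipy 1.17.1 and matplotlib 3.10.9. The genes and lists were chosen with earlier results of these data known. Named were the 8 genes and the 3 genes most like each member. From each list, up to 4 genes with the largest changes were named among those that passed at entry or exit. ZWINT and the list genes named for nocodazole at 9 and 10 h fall outside that rule and were chosen after their values were seen. Alternatives were no filter or a floor of 7, quantile normalization, centring of the arrays, averaged probe sets, a variance prior without the trend, a spline of 2 degrees of freedom, other windows and sets of arrays, a fit without the time block, and arrays or pairs of arrays left out in turn. Protein sequences were not used here.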

Additional observations from a re-analysis of the deposited data

Results flagged for a closer look

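The difference between nocodazole and DMSO at 9 and 10 h was not that at 7 and 8 h for 2 of the 8 genes, by the limma test of that interaction. FBXO5 changed by -2.514 (adjusted p = 0.0139), with nocodazole minus DMSO at -0.20, -0.995, -2.08 and -4.15 over the hours from 7 h to 10 h. CKS2 changed by 0.5851 (adjusted p = 0.0441), with -0.02, 0.06, 0.50 and 0.71 over the same hours. Beside these, the median interaction of all genes was -0.44, and the medians of the nocodazole arrays of 9 and 10 h were the lowest of the 12; the part of that shift in either result was not tested.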

How the results depend on the processing

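The nocodazole calls of FBXO5 (lower) and CKS2 (higher) at 9 and 10 h and that of FBXO5 against DMSO at 6 to 8 h kept their direction and their side of the threshold in 19 of 19 alternatives each. Of the 8 genes, 7 passed over the DMSO course, against 5 with no filter, 8 after quantile normalization, 6 after centring and 5 to 8 with 1 array left out. At entry 4 passed, against 1 with no filter, 2 with no intensity trend, 0 with 6 and 7 h alone and 0 to 5 with 1 array left out. The interaction passed for 2, against 1 with no intensity trend and 1 to 4 with both arrays of an hour left out. Nocodazole against DMSO at 9 and 10 h passed for 2, against 4 after centring, and against DMSO at 6 to 8 h for 4, against 2 after quantile normalization, 1 with DMSO at 7 and 8 h alone and 1 to 4 with 1 array left out. At exit and over all 4 nocodazole hours 0 passed in every alternative run.

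Directions that turned belonged to values that did not pass the test as deposited, except that of ESPL1 with nocodazole at 9 and 10 h against DMSO at 6 to 8 h. Among the turned values, 2 passed in limma after centring. They were UBE2S at 9 and 10 h (adjusted p = 0.00621) and PTTG1 against DMSO at 6 to 8 h (adjusted p = 0.0278). After centring, UBE2S stood at -0.029 at exit; CDC20, FZR1, PTTG1 and UBE2S at 0.24, 0.15, 0.19 and 0.31 over the 4 nocodazole hours; CDC20, FZR1, PTTG1, UBE2C and UBE2S at 0.58, 0.49, 0.45, 0.59 and 0.61 in the interaction; CDC20, FZR1, PTTG1 and UBE2S at 0.53, 0.39, 0.42 and 0.62 at 9 and 10 h; and ESPL1 and PTTG1 at 0.015 and 0.47 against DMSO at 6 to 8 h. After quantile normalization, FZR1 and UBE2S stood at 0.12 and 0.0031 over the 4 hours, FZR1 and UBE2C at 0.51 and 0.019 in the interaction, FZR1 at 0.37 at 9 and 10 h and PTTG1 at 0.0018 against DMSO at 6 to 8 h. With the mean of the probe sets, FBXO5 stood at 0.087 at exit and FZR1 at 0.21 in the interaction and 0.025 at 9 and 10 h. With DMSO at 7 and 8 h alone, CDC20 and UBE2S stood at -0.0060 and -0.067.

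With arrays left out in turn, exit ran from -0.38 to 0.29 for FBXO5 and from -0.01998 to 0.14 for UBE2S. Over the 4 nocodazole hours FZR1 ran from -0.32 to 0.020, UBE2C from -0.017 to 0.30 and UBE2S from -0.048 to 0.00724. The interaction ran from -0.25 to 0.067 for CDC20, from -0.69 to 0.33 for FZR1, from -0.55 to 0.40 for UBE2C and from -0.13 to 0.0018 for UBE2S. At 9 and 10 h CDC20 ran from -0.27 to 0.0037, FZR1 from -0.68 to 0.14, UBE2C from -0.34 to 0.51 and UBE2S from -0.11 to 0.019. Against DMSO at 6 to 8 h CDC20 ran from -0.0060 to 0.12 and UBE2S from -0.067 to 0.090. Over all genes the calls were 1993 for the course (862 without DMSO 0 h to 4080 after centring), 552 at entry (0 with 6 and 7 h alone to 1311 after centring), 0 over the 4 nocodazole hours (up to 401 without both arrays of 8 h), 0 at exit (up to 1 with a spread shared by all arrays), 1122 in the interaction (297 without both arrays of 10 h to 10073 with no filter), 4183 at 9 and 10 h (1649 without DMSO 10 h to 13397 with no filter) and 3884 against DMSO at 6 to 8 h (1427 without nocodazole 10 h to 13211 with no filter). The cause of these moves was not tested. With 1 array per condition, no value has a spread of its own hour.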
